A study of Rattus norvegicus with 11 samples.

Results

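This account compares whole lung of rats given SU5416 during chronic hypoxia (3 arrays) with whole lung of rats kept in the same hypoxia without it (4 arrays), 7 of the 11 arrays of the series. All probe sets of the arrays other than the manufacturer's controls entered, and the effect of a probe set is the difference of the mean log2 signal of both groups. The rats were Dahl salt-sensitive, a strain bred for blood pressure that rises with dietary salt, and weighed 250 to 350 g. Both groups breathed an inspired oxygen fraction of about 9.5%, and lung RNA was taken at 3.5 weeks, after the pulmonary vessels had been perfused. A further 4 arrays from rats in room air (normoxia) helped to estimate the spread between arrays, and their levels stand beside the comparison. The series text calls the hypoxia and normoxia groups vehicle-treated. The dose of SU5416 and the age and sex of the rats are not given in the sources used here, and no group received SU5416 in room air. The sorafenib group of the series was not analysed here. Nothing in the labels says that each array is a separate animal, so the p-values measure only the spread between these samples, and the number of arrays limits their precision.

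SU5416 is a small molecule that blocks the receptor tyrosine kinases for vascular endothelial growth factor (VEGF), chiefly VEGFR2, the product of Kdr, through which endothelial cells of the lung receive survival signals. Combined with hypoxia it is used to provoke a severe form of pulmonary hypertension in rats, in which small arteries narrow by growth of the vessel wall and of endothelial cells. The compound is also known to bind the aryl hydrocarbon receptor (AhR), a ligand-activated transcription factor that enters the nucleus, pairs with ARNT and switches on xenobiotic-metabolising enzymes such as the cytochrome P450 enzymes of family CYP1.

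The deposited values are log2 signals. Array medians lay between 7.80 and 7.95 on the 7 arrays compared, and 24502 of 31042 probe sets had means above a background level of 5.72 in both groups. Background was set at the 95th percentile of signals from bacterial control probe sets. Lung markers were strongly present: the median level of the alveolar type II list, surfactant genes among it, was 12.60 to 12.84 on these arrays, and that of the alveolar type I list 12.71 to 12.91. The gap between the 3′ and 5′ probe sets of beta-actin, a gauge of RNA integrity, was 0.58, 0.67 and 0.56 with SU5416 and 0.68, 0.78, 0.84 and 0.87 without it, so the groups did not overlap in this respect. It was widest on normoxia arrays 1 and 2 (2.24 and 1.33).

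Few single genes passed the test across the whole array, and the genes that did were led by targets of AhR. Cyp1a1 and Cyp1b1, enzymes that AhR switches on, rose together with the quinone reductase Nqo1. Ms4a7, a membrane protein of macrophages, rose from background. Opcml, a cell adhesion molecule best known from neurons, and Nfatc2, a calcineurin-dependent transcription factor of T cells and muscle, also rose.

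In all, 8 of 31042 probe sets were called at an adjusted p below 0.05 with limma (0.0258% of those tested), 7 of them higher with SU5416 (0.0226%) and 1 lower (0.00322%). At an unadjusted p below 0.05 there were 2319 (7.47%), where 1552 would arise by chance, 1249 higher (4.02%) and 1070 lower (3.45%). The arrays of the groups did not overlap for 3575 probe sets (11.5%), 1946 with SU5416 above (6.27%) and 1629 below (5.25%). Over all probe sets the median difference was 0.01, and 52.4% were higher with SU5416. A difference beyond 2-fold, with both groups above background, was found for 158 probe sets, 103 higher and 55 lower. The count of calls was 14 without normoxia array 1, 15 without SU5416 array 3 and 18 with the beta-actin gap as a covariate, a fit chosen after seeing the data that kept all 8. Against normoxia, from the same fit, 2 probe sets (0.00644%) were called in hypoxia and 19 (0.0612%) in hypoxia with SU5416. In whole lung, fewer cells of a type and less RNA per cell cannot be told apart, here and in everything that follows.

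**Figure D1:**
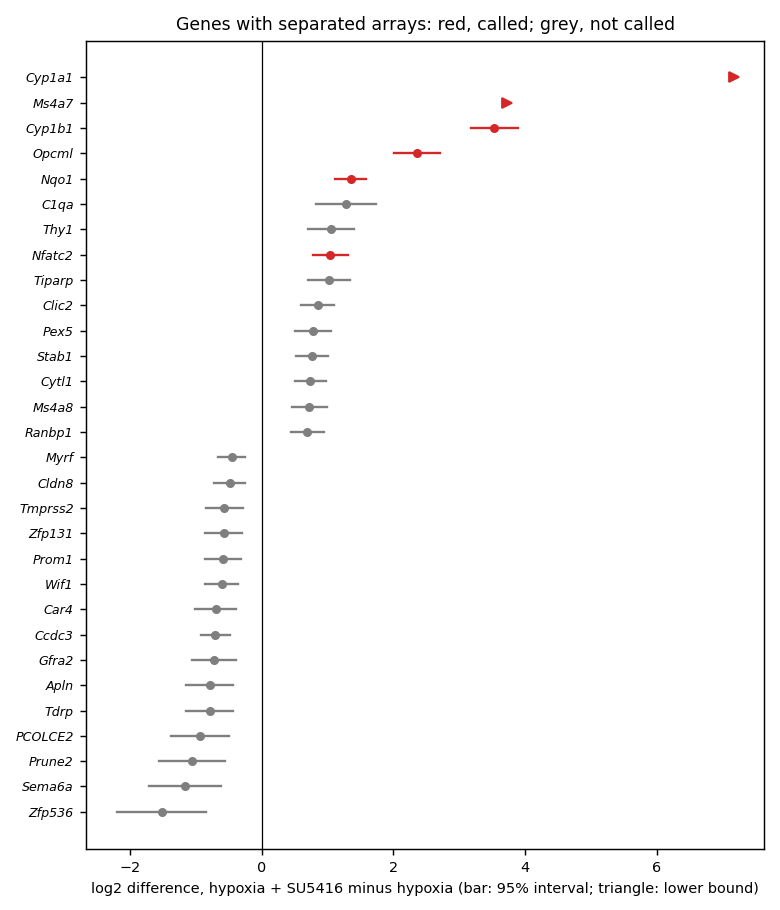
Differences in log2 signal between hypoxia with SU5416 (3 arrays) and hypoxia alone (4 arrays) for named genes with no overlap of arrays; points are differences of means and bars 95% intervals from limma. Red marks the 6 called genes, down to Nfatc2 at 1.04, and grey marks genes that were not called. Triangles mark lower bounds without intervals, for Cyp1a1 (at least 144-fold) and Ms4a7 (at least 13.3-fold), whose hypoxia means were below background.

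The 7 measured of 9 listed AhR targets were all higher with SU5416, 3 of them called, with a median difference of 1.35. Over the 14217 genes measured, each by its brightest probe set, 49.0% were higher, the median difference was −0.005 and 5 were called (0.0352%); the called probe set of Opcml is not its brightest and is not among them. Cyp1a1, which oxidises polycyclic aromatic hydrocarbons, stood at 12.84, 12.92 and 12.90 with SU5416 and at 4.30, 5.78, 3.94 and 4.63 in hypoxia alone. Normoxia was at 6.77 ± 0.69 (SD, n = 4), between them. The hypoxia mean was below background, so the rise was at least 144-fold (limma adjusted p = 7.61e-05). The SD was 0.04 between the SU5416 arrays and 0.80 between the hypoxia arrays.

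Cyp1b1, a related enzyme that also acts on oestrogens, stood at 12.48, 12.38 and 12.56 against 9.17, 8.95, 8.85 and 8.79. It rose 11.6-fold (difference 3.53, SE 0.162, limma adjusted p = 2.88e-05), and normoxia was at 9.04 ± 0.28 (SD, n = 4), next to hypoxia alone. Nqo1, which reduces quinones and answers to both AhR and Nrf2, stood at 12.68, 12.40 and 12.52 against 11.15, 11.08, 11.21 and 11.29. It rose 2.55-fold (difference 1.35, SE 0.108, limma adjusted p = 0.000923). For each of these 3 genes every SU5416 array lay above every other array of the series.

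Other AhR targets were separated between the groups without passing the threshold. Ahrr, the receptor's own repressor, stood at 9.70, 9.64 and 9.64 against 5.61, 5.54, 5.90 and 5.74, at least 15.4-fold higher. Its limma adjusted p was 0.077 with all 11 arrays, where the normoxia arrays spread widely (5.41 ± 1.34, SD, n = 4). With only the 7 arrays compared the adjusted p was 0.000188, and over all alternatives it ranged from 0.000188 to 0.341. Tiparp, a mono-ADP-ribosyltransferase that restrains AhR, stood at 11.60, 11.55 and 11.43 against 10.69, 10.46, 10.70 and 10.17 (2.03-fold, limma adjusted p = 0.0726), and its other probe set differed by 0.83. Aldh3a1, an aldehyde dehydrogenase, stood at 8.34, 8.35 and 7.76 against 7.34, 7.30, 7.38 and 7.46 (limma adjusted p = 0.324). All 3 genes thus had no overlap between the groups.

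Cyp1a2, an AhR target used chiefly by the liver, differed by 0.04 (SE 0.183), with overlapping arrays. Its sign changed in 2 of 20 alternatives. Of the 5 measured genes of the receptor's machinery, 4 were above background, and they differed by small amounts. Ahr differed by 0.17 (SE 0.128) and Arnt2 by 0.13, and the chaperones of the receptor complex, Ptges3 and Hsp90ab1, by 0.08 each. Arnt2 is not the gene of ARNT itself, for which no value is given here. The other Hsp90ab1 probe set differed by 0.34 with separated arrays (limma adjusted p = 0.501). Of the 5 measured genes of this machinery, none had, on its brightest probe set, an unadjusted p below 0.05. Nqo1, which was called, was counted with the AhR targets and not in the Nrf2 list, whose largest difference was 0.47. That list, which holds antioxidant enzymes that Nqo1 is often grouped with, had 10 of 13 measured genes higher, a median of 0.13 and 0 called by limma. On the brightest probe sets it had 0 genes at an unadjusted p below 0.05. Of all 14217 genes, 522 were higher at that level (3.67%) and 516 lower (3.63%), shares that also apply to the list counts further on. The arrays of 2 of the 13 were separated with SU5416 above, against 6.07% of all genes. Gclc, of this list, differed by 0.25 on its brightest probe set. Its other probe set differed by 0.63 with separated arrays (limma adjusted p = 0.57). The haem oxygenase Hmox1 stood at 10.20, 9.27 and 9.70 against 9.16, 9.28, 9.25 and 9.32, its second SU5416 array lying among the hypoxia arrays.

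**Figure D2:**
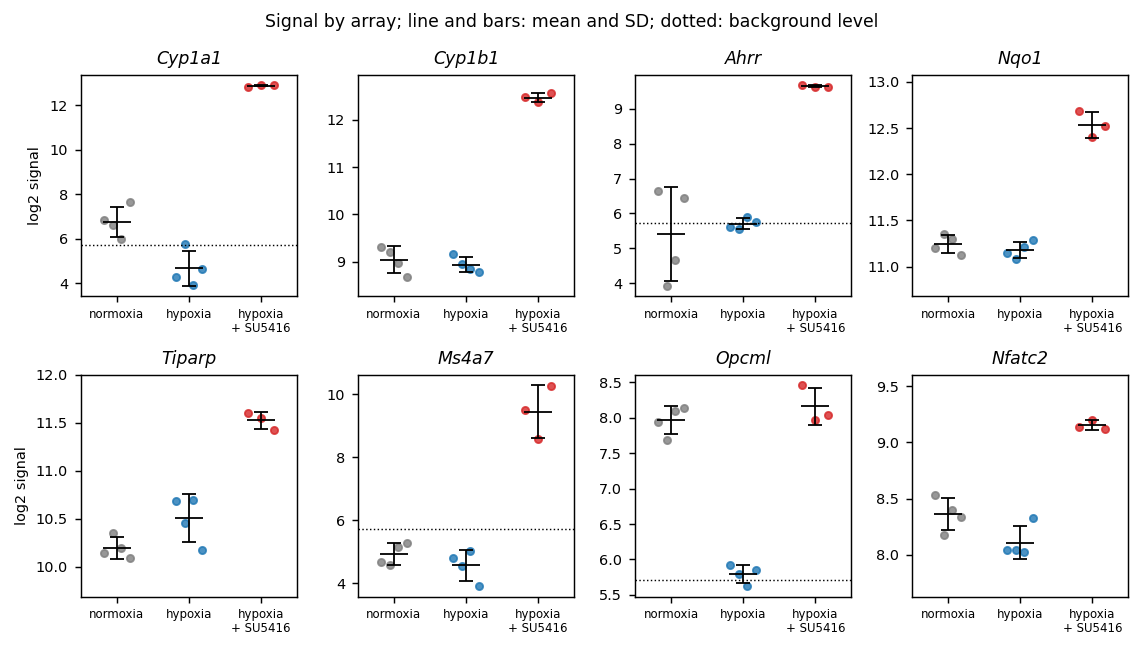
Log2 signal on each array of normoxia (4 arrays), hypoxia (4) and hypoxia with SU5416 (3) for 8 genes; lines and bars are means and SD, and the dotted line is the background level of 5.72. In every panel but that of Opcml the SU5416 arrays lie above all arrays of both other groups, as for Cyp1a1, at 12.84 to 12.92 against at most 7.63.

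The promoters of 4 of these genes are shown because AhR with ARNT binds DNA at a core of 5 bases, GCGTG, and the capitals mark each match to it on either strand (CACGC on the strand printed). The windows run from 250 bases before to 50 bases after the annotated start in the RefSeq annotation of GRCr8. They are Cyp1b1 (chr6:21094315-21094614, plus strand), Ahrr (chr1:30821969-30822268, plus strand), Tiparp (chr2:152063519-152063818, plus strand) and Nqo1 (chr19:52220218-52220517, minus strand), each printed 5′ to 3′ on the gene's strand.
Cyp1b1: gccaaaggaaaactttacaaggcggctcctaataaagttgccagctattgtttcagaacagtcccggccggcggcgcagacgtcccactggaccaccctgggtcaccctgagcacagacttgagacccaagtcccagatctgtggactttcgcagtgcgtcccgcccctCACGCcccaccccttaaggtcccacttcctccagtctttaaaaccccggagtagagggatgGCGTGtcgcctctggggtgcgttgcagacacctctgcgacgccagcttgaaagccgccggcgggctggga
Ahrr: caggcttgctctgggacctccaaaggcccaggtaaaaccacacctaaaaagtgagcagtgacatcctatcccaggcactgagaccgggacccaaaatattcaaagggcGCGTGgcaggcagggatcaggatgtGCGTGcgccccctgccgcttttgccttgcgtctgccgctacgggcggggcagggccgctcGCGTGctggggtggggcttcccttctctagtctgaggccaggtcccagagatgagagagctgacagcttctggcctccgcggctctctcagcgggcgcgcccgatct
Tiparp: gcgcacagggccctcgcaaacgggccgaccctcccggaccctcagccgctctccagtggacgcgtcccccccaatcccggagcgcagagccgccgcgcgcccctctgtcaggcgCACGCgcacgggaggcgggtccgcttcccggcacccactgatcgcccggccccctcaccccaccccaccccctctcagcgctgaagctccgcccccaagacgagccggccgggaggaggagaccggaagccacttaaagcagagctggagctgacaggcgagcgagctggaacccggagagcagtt
Nqo1: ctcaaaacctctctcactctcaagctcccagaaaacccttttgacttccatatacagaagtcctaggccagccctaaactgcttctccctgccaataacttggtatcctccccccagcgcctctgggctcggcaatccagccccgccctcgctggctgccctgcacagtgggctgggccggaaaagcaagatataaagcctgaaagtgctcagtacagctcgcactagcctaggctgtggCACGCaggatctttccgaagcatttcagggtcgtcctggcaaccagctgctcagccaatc
Cyp1b1 held 2 matches, with first bases at −81 and −20 from the start, and Ahrr held 3, at −142, −117 and −57. Tiparp held 1 match, at −136, and Nqo1 held 1, at −10. The match at −20 in Cyp1b1 and that at −57 in Ahrr also fit the longer form TNGCGTG, which contains the core. Of 33469 rat promoter windows of the same length, 29.7% held at least 1 core match, 10.2% at least 2, 3.59% at least 3, and 4.89% the longer form. The windows of Cyp1a2, Ms4a7, Nfatc2, C1qa and C1qb held no match, which says only that these letters are not in this stretch. For Cyp1a1, Aldh3a1, Opcml, C1qc and Thy1 no promoter window was found in the reference used, so these genes were not searched.

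Of the macrophage genes measured, Ms4a7 was called. It stood at 9.49, 8.58 and 10.28 with SU5416 and at 4.80, 4.54, 5.03 and 3.89 in hypoxia alone, and normoxia was at 4.92 ± 0.35 (SD, n = 4). Ms4a7 rose at least 13.3-fold (limma adjusted p = 0.000923), being below background on every array without SU5416. The chains of C1q, the first component of complement, which interstitial macrophages make, were higher on every SU5416 array but were not called. C1qa stood at 11.15, 10.85 and 11.59 against 9.80, 9.97, 10.10 and 9.79 (2.43-fold, limma adjusted p = 0.123). C1qb differed by 1.55 (SE 0.358) and C1qc by 1.27 (SE 0.242). Stab1, a scavenger receptor of macrophages and some endothelium, stood at 9.20, 9.20 and 9.21 against 8.62, 8.49, 8.24 and 8.38 (1.70-fold, limma adjusted p = 0.0726).

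Several general macrophage markers overlapped between the groups or were lower. Adgre1, a surface receptor of mature macrophages, was lower on all SU5416 arrays: 7.52, 7.47 and 7.70 against 8.14, 8.38, 8.16 and 8.12 (difference −0.64, limma adjusted p = 0.442). The growth factor receptor Csf1r differed by 0.01 (SE 0.144). The lysosomal protein Cd68 differed by 0.27 (SE 0.34) and the mannose receptor Mrc1 by 0.40 (SE 0.179), and the arrays of these 3 genes overlapped. Ctss and Aif1, also with overlapping arrays, differed by 0.44 (SE 0.14) and 0.57 (SE 0.214), and the other Aif1 probe set by −0.06. Of the 24 measured genes of the macrophage and monocyte list, 21 were higher and 3 lower, 1 was called, and the median difference was 0.29. At an unadjusted p below 0.05 there were 8 higher and 1 lower, against 3.67% and 3.63% of all genes. The summed linear signal of the list overlapped between the groups, at 40205 to 51841 against 35424 to 42028, and Itgam was below background in both groups. The median level of the list did not overlap, at 10.08 to 10.60 against 9.40 to 9.64. Without Ms4a7 and the C1q chains it did, at 9.91 to 10.60 against 9.96 to 10.11. Of the 20 measured genes then left, 17 were higher, with a median difference of 0.25. The median difference of the full list was 0.20 with the beta-actin gap as a covariate.

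The second SU5416 array had the smallest values of that group for several of these genes. It was lowest for Ms4a7 and all 3 C1q chains, and for Cd68 (10.18 against 11.05 and 10.96) it lay below all hypoxia arrays. Osteopontin, Spp1, a matrix protein that macrophages secrete, stood at 10.96, 8.79 and 10.45 against 8.21, 8.27, 8.18 and 8.12. Lipocalin 2, Lcn2, stood at 13.26, 12.42 and 13.10 against 11.84, 11.26, 12.30 and 11.38. Both genes were separated between the groups but not called, with limma adjusted p of 0.533 and 0.706. Lcn2 comes from the neutrophil list, of which 5 of 8 measured genes were higher, with a median of 0.59, 0 called by limma and 1 at an unadjusted p below 0.05. That median was 0.28 with 2 genes at their bound and 1 below background in both groups left out. The summed linear signal of the list was 7491 to 11808 against 4297 to 7403. On the SU5416 arrays Lcn2 alone made up most of that sum, so the sum does not stand for the list as a whole. The arrays of 4 of the 8 genes were separated with SU5416 above, against 6.07% of all genes. These were Lcn2, Mmp8, which differed by 0.28, and Il1r2 and Cxcr2, whose hypoxia means were below background. The granule proteins S100a8 and S100a9 differed by −0.02 and −0.09. The part of neutrophils in the differences of other genes was not tested. Without the second SU5416 array the median difference of the macrophage list was 0.40.

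**Figure D3:**
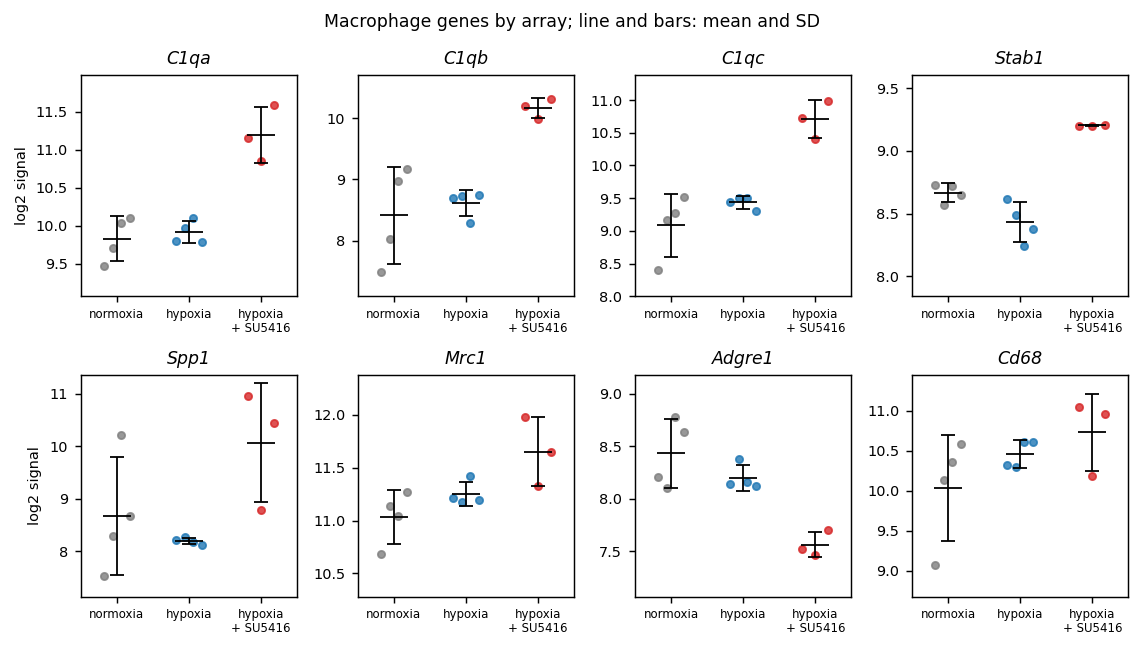
Log2 signal of 8 macrophage-related genes on each array of the 3 groups; lines and bars are means and SD. The C1q chains and Stab1 are higher on all SU5416 arrays, Adgre1 is lower (7.47 to 7.70 against 8.12 to 8.38 in hypoxia), and Cd68 overlaps.

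The level of Opcml with SU5416 was close to that in normoxia. It stood at 8.46, 7.97 and 8.04 with SU5416 and at 5.92, 5.79, 5.62 and 5.85 in hypoxia alone, a mean just above background (5.15-fold, SE 0.156 on the log2 scale, limma adjusted p = 0.000251). Normoxia was at 7.96 ± 0.20 (SD, n = 4), so SU5416 differed from normoxia by 0.19 and hypoxia alone by −2.17. The other, brighter Opcml probe set differed by 0.82 between the hypoxic groups, with separated arrays, and was not called (limma adjusted p = 0.522). Its means were 8.47 with SU5416, 7.65 in hypoxia and 8.31 in normoxia. Pex5, a receptor that imports proteins into peroxisomes, had 1 probe set with levels in the same order, which was not called: 8.32, 8.06 and 8.12 against 7.45, 7.49, 7.33 and 7.28, with normoxia at 8.15 ± 0.16. The brighter Pex5 probe set had no such order, at means of 9.90, 9.96 and 9.92 with SU5416, in hypoxia and in normoxia (difference −0.06).

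Nfatc2 stood at 9.14, 9.20 and 9.12 against 8.04, 8.04, 8.03 and 8.33, and rose 2.06-fold (difference 1.04, SE 0.118, limma adjusted p = 0.0191). Its call was lost in 8 of 20 alternatives, with only the 7 arrays and without each of hypoxia arrays 1, 2 and 3 and SU5416 arrays 1, 2 and 3 among them, and its adjusted p ranged from 0.00303 to 0.238. Its other probe set differed by 0.15 with overlapping arrays. Both remaining calls carry little gene information, and they were chosen after their values were seen. A probe set without a gene name in the annotation, 1374771_at, stood at 10.57, 10.84 and 10.68 against 9.29, 9.43, 9.39 and 9.47 and rose 2.46-fold (limma adjusted p = 0.000923). The single lower call, a probe set of Cdh1 (E-cadherin), lay below background in both groups, and the brighter Cdh1 probe set differed by −0.19 (SE 0.156).

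Genes next in rank by unadjusted p, above background and separated between the groups, had limma adjusted p from 0.0675 to 0.155 when higher. Clic2, an intracellular chloride channel protein, stood at 10.58, 10.59 and 10.70 against 9.76, 9.98, 9.70 and 9.66. Cytl1, a secreted cytokine-like protein, stood at 11.04, 11.11 and 11.08 against 10.29, 10.34, 10.40 and 10.31. Thy1, a surface protein of fibroblasts and T cells, differed by 1.05 on its brighter probe set and by 2.31 on the other, where values were 9.13, 8.17 and 8.61 against 6.22, 6.60, 6.18 and 6.31. Ms4a8, of the same family as Ms4a7, differed by 0.72, and the Ran-binding protein Ranbp1 by 0.69. On every SU5416 array these genes also stood above their normoxia means.

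On the lower side, Ccdc3, which endothelial cells and adipocytes secrete, stood at 8.85, 8.97 and 8.85 against 9.69, 9.52, 9.54 and 9.63, with normoxia at 9.68 ± 0.11 (limma adjusted p = 0.0726). The next 14 had limma adjusted p between 0.277 and 0.33. The Wnt inhibitor Wif1 differed by −0.61, the pentaspan membrane protein Prom1 by −0.59, the serine protease Tmprss2 by −0.57 and the tight junction protein Cldn8 by −0.49. The other Tmprss2 probe set differed by 0.02. The guidance cue Sema6a differed by −1.17 on this probe set but by −0.56 and −0.34 on its brighter ones and by 0.06 on a dimmer one. The GDNF-family receptor Gfra2 differed by −0.73 (its other probe set by 0.23) and the collagen-processing enhancer PCOLCE2 by −0.94. Prune2 differed by −1.06 and its other probe sets by −1.28 and −1.30, all separated. Zfp536 differed by −1.52, to a mean at the background level, and its only other probe set above background by −0.49. None of these lower genes was called, and among the 14217 genes 929 were separated with SU5416 below (6.53%) and 863 with SU5416 above (6.07%).

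The receptors that SU5416 targets and their ligands went both ways, and none was called. Of 10 VEGF ligands and receptors, 5 were higher and 5 lower, and the median difference was 0.02, with either sign among the alternatives. At an unadjusted p below 0.05 there were 2 higher and 1 lower. Kdr stood at 11.87, 12.18 and 12.21 against 12.38, 12.27, 12.27 and 12.41, with normoxia at 12.58 ± 0.07 (SD, n = 4). The groups were separated, and the difference of −0.25 (SE 0.11) was not called (limma adjusted p = 0.668). Vegfa, its main ligand, stood at 11.57, 11.85 and 11.99 against 12.34, 12.10, 12.09 and 12.14 (difference −0.36, limma adjusted p = 0.69). The other Vegfa probe set differed by −0.13 with overlapping arrays. The lymphatic growth factors Vegfd and Vegfc differed by 0.59 and 0.44, and their receptor Flt4 by 0.51. The probe sets of the decoy receptor Flt1 disagreed: the brightest differed by −0.06, with a sign that changed in 1 of 20 alternatives, and the others by 0.62 and 0.86. The last of these was separated, at 8.18, 8.66 and 8.24 against 7.85, 7.28, 7.37 and 7.52 (limma adjusted p = 0.314).

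Among endothelial and VEGF-responsive genes, Apln, Car4 and Spns2 had the smallest unadjusted p, all lower with SU5416. Apelin, Apln, a peptide of endothelial tip cells, stood at 9.82, 10.35 and 10.41 against 10.94, 10.82, 10.98 and 11.21, with normoxia at 11.38 ± 0.13. Its other probe set differed by −0.54 and was also separated. Car4, a carbonic anhydrase of lung capillaries, stood at 9.81, 10.04 and 9.89 against 10.53, 10.44, 10.51 and 10.96. Spns2, which exports sphingosine-1-phosphate, stood at 10.11, 10.61 and 10.45 against 10.98, 11.01, 10.78 and 10.90. None was called (limma adjusted p = 0.288, 0.287 and 0.409), and for all 3 the group means ran from normoxia through hypoxia to SU5416 from high to low.

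The endothelial list as a whole had 9 of 25 measured genes higher and 16 lower, a median of −0.07, and 0 called by limma, with 1 higher and 3 lower at an unadjusted p below 0.05. The median was −0.04 without SU5416 array 1, −0.04 without hypoxia array 1 and −0.12 without SU5416 array 2. Its summed linear signal was 82144 to 88623 with SU5416 and 87904 to 93331 without. The pan-endothelial adhesion molecule Pecam1 differed by −0.31 (11.16, 11.26 and 11.27 against 11.60, 11.67, 11.54 and 11.37), Tek, the angiopoietin receptor, by −0.22 and the apelin receptor Aplnr by −0.32 (its other probe set by 0.26). Nos3, the endothelial nitric oxide synthase, went the other way, at 8.05, 8.12 and 8.26 against 7.91, 7.90, 7.52 and 7.60 (limma adjusted p = 0.501). Of 11 measured genes known to respond to VEGF, 9 were higher and 2 lower, Apln and Dll4, with a median of 0.13 and 0 called by limma. At an unadjusted p below 0.05 there was 1, Apln. The median was 0.08 without hypoxia array 3, 0.21 without hypoxia array 4 and 0.23 without SU5416 array 2. Angpt2, which loosens vessel contacts, differed by 0.44 and the tip-cell proteoglycan Esm1 by 0.59. The Notch ligand Dll4 differed by −0.26, with a sign that changed in 1 of 20 alternatives, and its other probe set by −0.01.

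**Figure D4:**
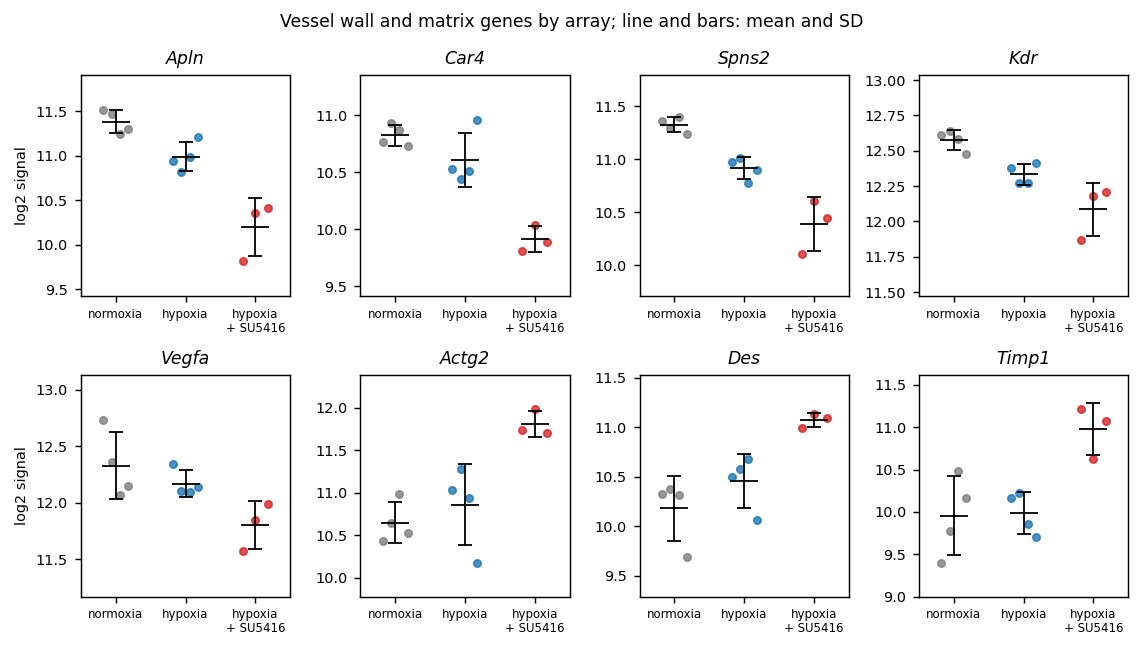
Log2 signal of 8 genes of vessel wall and matrix on each array of the 3 groups; lines and bars are means and SD. Apln, Car4, Spns2, Kdr and Vegfa are lowest with SU5416, and Actg2, Des and Timp1 are highest; none of the 8 was called.

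In the BMP pathway, whose receptor Bmpr2 is mutated in heritable pulmonary arterial hypertension, 10 of 24 measured genes were higher and 14 lower, with a median of −0.08 that turned to 0.03 without SU5416 array 3. Bmpr2 differed by −0.11 and its target Id1 by −0.01, and both changed sign in some alternatives; the other Bmpr2 probe set differed by 0.21. The ligand Bmp4 stood at 11.74, 11.58 and 11.53 against 12.07, 11.97, 11.94 and 11.90. Grem1, the BMP antagonist gremlin, stood at 7.78, 8.43 and 8.42 against 7.19, 7.29, 7.41 and 6.03, and Chrd, chordin, another antagonist, at 7.06, 7.19 and 6.96 against 6.30, 6.57, 6.58 and 6.40. None passed (limma adjusted p = 0.57 for Bmp4, 0.442 for Grem1 and 0.441 for Chrd). The inhibitory Smad6 differed by −0.32 on its brightest probe set, and its 3 others by −0.24 to 0.29.

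The TGF-beta list had 12 of 16 genes higher, a median of 0.12 and 0 called by limma, with 2 higher at an unadjusted p below 0.05. The median was 0.05, 0.07 and 0.07 without hypoxia array 4, hypoxia array 3 and SU5416 array 2. The activin subunit Inhba stood between 7.74 and 8.26 against 6.98, 7.44, 7.23 and 6.72, with normoxia at 6.79 ± 0.24 (SD, n = 4), but its other probe set differed by 0.21 with overlapping arrays. The TGF-beta-induced matrix protein Tgfbi differed by 0.44, and the connective tissue growth factor Ccn2 by 0.28. Of the vasoactive genes, endothelin 1, Edn1, differed by 0.41 (SE 0.183), and the prostaglandin enzymes Ptgs1 and Ptgis by 0.40 and 0.34. Their limma adjusted p lay at 0.57 or above.

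Genes of smooth muscle and matrix were mostly higher with SU5416, and none was called. Of 18 measured contractile genes 17 were higher, with a median of 0.23, and 6 had an unadjusted p below 0.05, all higher. Of all genes, 3.67% were higher at that level and 6.07% were separated with SU5416 above. Actg2, the enteric smooth muscle actin, stood at 11.74, 11.99 and 11.71 against 11.04, 11.28, 10.94 and 10.18 (limma adjusted p = 0.434). The intermediate filament protein desmin, Des, differed by 0.61, calponin, Cnn1, by 0.69, Tpm2 by 0.58, Tagln by 0.58 and the smooth muscle myosin Myh11 by 0.30, each with separated arrays. The vascular actin Acta2 differed by 0.08 (SE 0.177). The fourth hypoxia array was the lowest of its group for each of these 7 genes. Without it the list median was 0.17, and without SU5416 array 2 it was 0.12. The summed linear signal of the list was 46263 to 51331 against 33285 to 45009.

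Of 35 measured matrix glycoproteins and remodelling enzymes, 33 were higher and 2 lower, with a median of 0.23. At an unadjusted p below 0.05, 6 were higher and 1 lower, against 3.67% and 3.63% of all genes. Timp1, an inhibitor of metalloproteinases, stood at 11.22, 10.63 and 11.08 against 10.17, 10.22, 9.86 and 9.70, and fibronectin, Fn1, at 12.46, 12.42 and 12.42 against 12.15, 12.10, 11.99 and 11.85. Tenascin C, Tnc, found in remodelled arteries, differed by 0.68. These 3 genes were separated between the groups, each with a limma adjusted p of 0.442. Of 20 collagens 15 were higher, with a median of 0.21 that was 0.13 without hypoxia array 4. Col16a1 differed by 0.46 and Col18a1, the endostatin precursor, by 0.74, while Col1a1, the main fibrillar collagen, differed by 0.34 (SE 0.306) with overlapping arrays.

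Cell cycle and replication genes were higher for 28 of 32 measured, with a median of 0.25. An unadjusted p below 0.05 was passed by 4, all higher, against 3.67% of all genes. The replicative helicase subunit Mcm5 differed by 0.40, thymidine kinase Tk1 by 0.46 and the mitotic kinase Aurka by 0.69, whereas the proliferation marker Mki67 differed by 0.49 with overlapping arrays. The other Tk1 probe sets differed by 0.21 and 0.19, also with overlapping arrays. The median was 0.13 without SU5416 array 1 and 0.41 without SU5416 array 3.

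Chemokines were higher for 18 of 24 measured, with a median of 0.22 and 6 higher at an unadjusted p below 0.05, against 3.67% of all genes. Cxcl12, the ligand of Cxcr4, stood at 11.89, 11.62 and 11.63 against 11.15, 11.33, 11.13 and 11.10 (limma adjusted p = 0.33). Its other probe sets disagreed, one differing by −0.65 and one by 0.60, both with overlapping arrays. Its scavenger receptor Ackr3 differed by 0.60. The monocyte attractant Ccl2 stood at 7.94, 8.87 and 8.46 against 6.87, 7.31, 6.46 and 5.66. Cxcl10, an interferon-induced T cell attractant, differed by 1.04. E-selectin, Sele, which captures leukocytes on activated endothelium, stood at 6.62, 7.01 and 6.88 with SU5416 and below background on every hypoxia array (limma adjusted p = 0.442). The cytokine Il1a differed by −0.65 and the alarmin Il33 by 0.30. The MHC class II loading factor RT1-DMa stood at 10.75, 10.38 and 10.77 against 9.98, 9.95, 9.96 and 9.96, and the class II transactivator Ciita differed by 0.54. None of these genes was called.

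Among xenobiotic enzymes not known chiefly as AhR targets, 12 of 17 were lower and 5 higher, with a median of −0.16, which was −0.05 without hypoxia array 3 and −0.06 without SU5416 array 2. The 4 at an unadjusted p below 0.05 were all lower. The flavin monooxygenase Fmo1 stood at 10.43, 10.92 and 11.11 against 11.43, 11.25, 11.35 and 11.74. The cytochromes Cyp3a9, Cyp2e1 and Cyp4b1 differed by −0.62, −0.69 and −0.44. Their limma adjusted p lay between 0.501 and 0.615. The sign of these 4 enzymes, none of them called, was opposite to that of Cyp1a1 and Cyp1b1, while 5 of the 17 were higher.

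**Figure D5:**
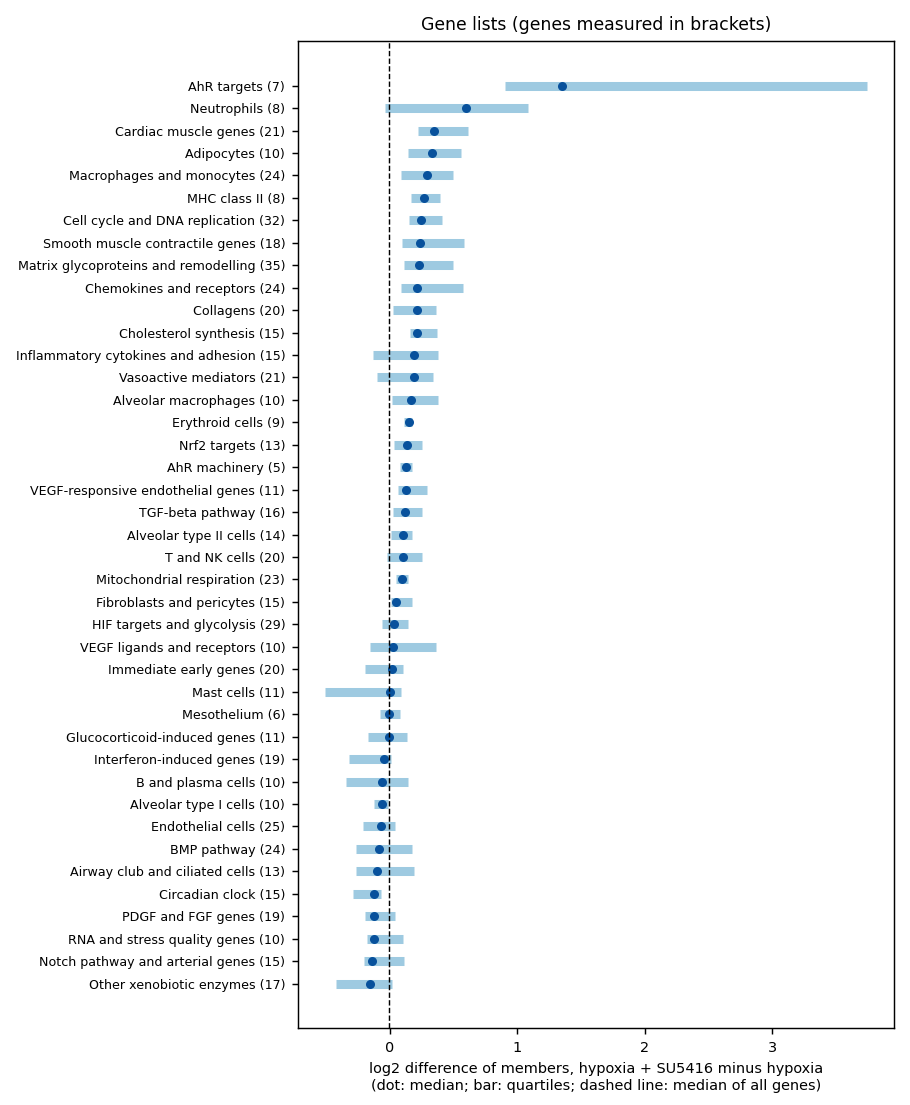
Differences in log2 signal between hypoxia with SU5416 and hypoxia alone for 41 gene lists; dots are medians over measured genes, bars quartiles, and the dashed line the median over all genes. AhR targets lie at 1.35, neutrophil genes at 0.59 and all other lists between −0.16 and 0.34. Genes below background enter with their fitted differences.

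Across the 41 lists 650 genes were measured, of which 4 were called (0.615%), all in the AhR and macrophage lists. Of all 14217 genes measured 5 were called (0.0352%). The lists were chosen with earlier results of these data known, so the larger share is no separate result. Hypoxia-inducible genes and glycolytic enzymes, which answer to the oxygen level that both groups shared, had a median of 0.03, with either sign among the alternatives. The oxygen sensor Egln3 differed by 0.46 and lactate dehydrogenase, Ldha, by 0.21, both with separated arrays. Alveolar type II genes had 11 of 14 higher and a median of 0.11, and alveolar type I genes 1 of 10 higher and a median of −0.07. The lung epithelial transcription factor Nkx2-1, of the type II list, stood at 11.57, 11.51 and 11.19 against 11.86, 11.64, 11.70 and 11.94. It was the only gene of that list at an unadjusted p below 0.05 and was not called (limma adjusted p = 0.651).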

How the data were processed

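Total RNA from rat lung was hybridised to 1 Affymetrix expression array per sample. The authors' deposited values are log2 signals, 1 per probe set, made with RMA per the submitters' processing notes, which give no version. Their distributions differ between arrays and the linear mean, trimmed by 2% at each end, is 500 on each, so how they were scaled is uncertain. They were used as deposited.

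Of 31099 probe sets, 57 controls were left out. The array's annotation names 1 gene for 20826 of the rest, several for 436 and none for 9780. Where a gene had several probe sets, lists used the brightest. A model of group means was fitted to all 11 arrays with limma 3.58.1 (lmFit, eBayes) under R 4.3.3, leaving 8 residual degrees of freedom, with two-sided p-values adjusted by Benjamini-Hochberg over 31042 probe sets. The median SE of a difference was 0.2. Background was the 95th percentile of 27 bacterial control probe sets, and a fold against a group below it is a bound computed from it.

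The comparison, the 41 gene lists and the rule for naming genes were chosen with earlier results of these data known. The rule took called genes with separated arrays, up to 15 per direction filled by uncalled genes of smallest p, up to 4 genes of smallest p per list, and a panel of vascular genes. Ahrr, Aldh3a1, Cyp1a2, Csf1r, Adgre1, Ctss, Aif1, Itgam, S100a8, S100a9, Pecam1, Dll4, Myh11, Tagln, Cdh1 and a probe set without a gene name were named after their values were seen. Alternatives were quantile normalization, median centring, no dim probe sets, the 7 arrays alone, eBayes with trend and robust options, array weights, a threshold of 0.1, a replicate block and leaving out each array; fits with the beta-actin gap and without normoxia arrays 1 and 2 were chosen after seeing the data. The procedure was tested on simulated data. Tables and figures used Python 3.11.15, pandas 2.3.3, numpy 2.4.6 and matplotlib 3.10.9.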

Additional observations from a re-analysis of the deposited data

Results flagged for a closer look

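Within hypoxia alone, Nfatc2 on array 4 stood at 8.33, whereas the other 3 arrays of the group stood at 8.03 to 8.04. The gap was 0.96 of the range of the group, above the 95% critical value of Dixon's test for 4 samples. Chance alone passes this limit in about 1 in 20 groups, and 26 groups were looked at. The 4 arrays still lay below all SU5416 arrays.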

How the results depend on the processing

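The count of calls, 8 (7 higher, 1 lower), changed as follows. It was 18 (14 and 4) at an adjusted p below 0.1, 14 (12 and 2) after quantile normalization, 12 (11 and 1) without dim probe sets, 11 (9 and 2) with only the 7 arrays, 16 (14 and 2) with the trend and robust options, and 24 (19 and 5) with array weights. Leaving out 1 array at a time gave 7 to 15 calls, 6 to 12 of them higher and 1 to 4 lower. It was 16 (13 and 3) without normoxia arrays 1 and 2 and 18 (14 and 4) with the beta-actin gap as a covariate. Median centring gave 8 calls. All 8 calls were kept in 11 of 20 other fits and 7 of them in 7 more; of the remaining fits, that without dim probe sets tested only 4 of the 8 and kept those. With the replicate number as a block there were 6 calls (5 and 1), all among the 8; Nqo1 (adjusted p = 0.0623) and Nfatc2 (0.238) were lost. The labels pair no arrays. Same-numbered arrays of both hypoxic groups correlated by −0.04 to 0.13 in their deviations from group means, with 2 of 6 closest to their own number. So few arrays cannot exclude a pairing by number. Cyp1a1, Ms4a7 and Opcml kept their calls in all 19 fits that tested them and Cyp1b1 in all 20. The median difference over all probe sets ranged from −0.03 to 0.03. The cause of these shifts was not tested. Signal limits the rest: 17.2% of probe sets were below background in both groups, where no fold can be given.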

Other observations

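Some cell types that the comparison did not dwell on had single genes at the lower or higher end. Of the plasma cell genes, Jchain, the joining chain of secreted antibodies, stood at 9.07, 8.85 and 9.65 against 9.80, 9.97, 10.37 and 10.57, and Mzb1, a chaperone of antibody assembly, at 8.09, 7.13 and 7.63 against 8.12, 8.36, 8.21 and 8.44. The other Jchain probe set differed by −0.33 with overlapping arrays. Neither was called (limma adjusted p = 0.377 and 0.509), and the B and plasma cell list had 4 of 10 genes higher and a median of −0.06. Of the mast cell proteases, chymase, Cma1, differed by −1.47 with overlapping arrays. Tpsab1 was below background with SU5416, at least 1.86-fold lower without being called, and the list median was −0.002.

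Among stromal and fat genes, the pericyte gene Rgs5 stood at 9.92 ± 0.15 (SD, n = 3) against 9.23 ± 0.18 (n = 4), with separated arrays (limma adjusted p = 0.418). The list of fibroblasts and pericytes had 11 of 15 genes higher and a median of 0.05. Ucp1, the uncoupling protein of brown fat, stood at 6.83, 7.13 and 6.10 with SU5416 and below background on every hypoxia array (limma adjusted p = 0.318), and normoxia was at 6.25 ± 0.34 (SD, n = 4). Of 15 cholesterol synthesis genes 13 were higher, with a median of 0.21, and of 15 circadian clock genes 2 were higher, with a median of −0.12 that was −0.35 without hypoxia array 1. Of 21 cardiac muscle genes 16 were higher, with a median of 0.34 that was 0.07 without SU5416 array 1 and 0.95 without SU5416 array 3.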
